A study of Mus musculus with 17 samples.

Results

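The machinery of T cell receptor signalling was followed as a set of 38 genes in RNA of mouse T helper 2 (Th2) cells. The members were listed by symbol for their role in the pathway, with earlier results of these data known. All 38 were found among the 24537 genes of each table. They cover the CD3 and zeta chains of the receptor (4 genes), its surface partners (5), the proximal kinases (5), the complex built on the adaptor LAT (6), the branch to Ras and protein kinase C-theta (5), the branch to calcineurin and NFAT (5) and the brakes on the pathway (8).

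When a T cell receptor meets its peptide, the kinase Lck phosphorylates the CD3 and zeta tails, Zap70 docks there and phosphorylates the scaffold LAT, and LAT gathers adaptors and phospholipase C-gamma1. The lipase makes diacylglycerol, which switches on Ras and protein kinase C-theta, and releases calcium, which activates calcineurin and sends NFAT factors to the nucleus. Kinases such as Csk, phosphatases, ubiquitin ligases and diacylglycerol kinases damp the signal. In Th2 cells this pathway drives the cytokine genes when allergen is presented again.

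Smart-seq2, an RNA library method for small cell numbers, gave 17 libraries in 6 groups. Airway cells (3 libraries, bronchoalveolar lavage) and reporter node cells (3, mediastinal lymph node) were Th2 cells of GATIR mice, in which a yellow fluorescent protein reports Gata3, the main Th2 regulator. OTII mice carry a transgenic receptor for an ovalbumin peptide, and all OTII groups share it. Their node Th2 cells were Notch1/2 knockout-labelled (4 libraries, genotype OTII_Notch1/2-KO) or wild type (3), and sorted cells of both kinds of mice came from animals with allergen-driven airway inflammation. Knockout-labelled (2) and wild type (2) OTII cells were also cultured from naive T cells of the spleen. Plates coated with anti-CD3/CD28 gave the stimulus, IL-4 was added, IFN-γ and IL-12/23 were blocked with antibodies, and the culture lasted 7 days. The labels call the replicates biological but do not say which came from separate animals, nor which Cre line or cell type the deletion used, nor the animals' age.

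The labels describe the sorted cells as lymphocytes and give no purity, and Cd3g had the highest mean of the 38 members in every group. Between 16.3 and 27.5 M reads stood behind each table. The targeted gene Notch1 had 10.9 ± 2.31 scaled RPKM in knockout-labelled node cells and 47.9 ± 1.47 in wild type node cells (SD, n = 4 and 3; limma adjusted p = 5.49e-05), whereas Notch2 had 16.2 ± 2.09 in knockout-labelled node cells and 7.88 ± 0.305 in wild type node cells. Dtx1, a Notch target, had 0.898 ± 0.216 in knockout-labelled node cells and 43.7 ± 7.93 in wild type node cells (limma adjusted p = 1.31e-06). Notch2 RNA was thus higher, not lower, in the library group labelled knockout, and which part of the gene was deleted is not given in the sources used here, so the cells are called knockout-labelled throughout. A list of 14 macrophage genes summed to between 3260 and 7450 scaled RPKM in airway libraries, against 80.6 to 127 in reporter node libraries. Chil3 and Lyz2 made up most of the airway sum (means 2980 and 1370), followed by Ccr2 (175) and Cd68 (76.4). Other genes of the list were low in airway libraries, with means of 3.55 for Adgre1, 5.51 for Csf1r and 1.91 for Mrc1. The list of T cell markers summed to between 2170 and 2240 in airway libraries and between 1980 and 2280 in reporter node libraries, with 7 of its 8 genes in the tables. Most of this sum is the members Cd3d, Cd3e and Cd3g, so it is no separate measure of T cell content. Of the 7 genes, 2 had a positive and 5 a negative log2 fold change, airway minus node, and none was called. Of 2898 genes with at least 20 RPKM in all OTII libraries, airway replicates 1, 2 and 3 listed 30, 41 and 2 at 0, and no other library listed any at 0, so single zeros in airway cells are weak evidence of absence.

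Levels are RPKM, reads per kilobase of transcript and per M reads of the library, divided by 1 scaling factor per library ("scaled RPKM"). They can thus be set side by side between genes as well as between libraries. Cd3g, a chain that links the antigen receptor to the kinases, averaged 1200 ± 15.2 scaled RPKM in airway cells, 1030 ± 91.1 in reporter node cells, 802 ± 75.5 in knockout-labelled node cells, 570 ± 34.7 in wild type node cells, 529 ± 41.6 in knockout-labelled culture and 504 ± 1.45 in wild type culture. At the other end, Txk and Tec, kinases of the Tec family, and Sos1, an activator of Ras, stayed at or below 10 scaled RPKM in every group mean. The 38 means summed to 8080 scaled RPKM in airway cells, 7030 in reporter node cells, 6470 in knockout-labelled node cells, 6200 in wild type node cells, 4320 in knockout-labelled culture and 4220 in wild type culture. By this sum, in which the few most abundant members weigh most, the order was airway, lymph node, culture. The median of the 38 means gave another order. It was 108 in knockout-labelled node cells, 91.9 in wild type node cells, 74.7 in wild type culture and 63.9 in knockout-labelled culture. In airway cells it was 61.5 and in reporter node cells 57.1. Both orders set reporter mice beside OTII mice, which were not tested against each other. The members listed at 0 in any library were Tec, in airway replicate 1 and reporter node replicate 3, and Txk, in airway replicate 2.

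**Figure D1:**
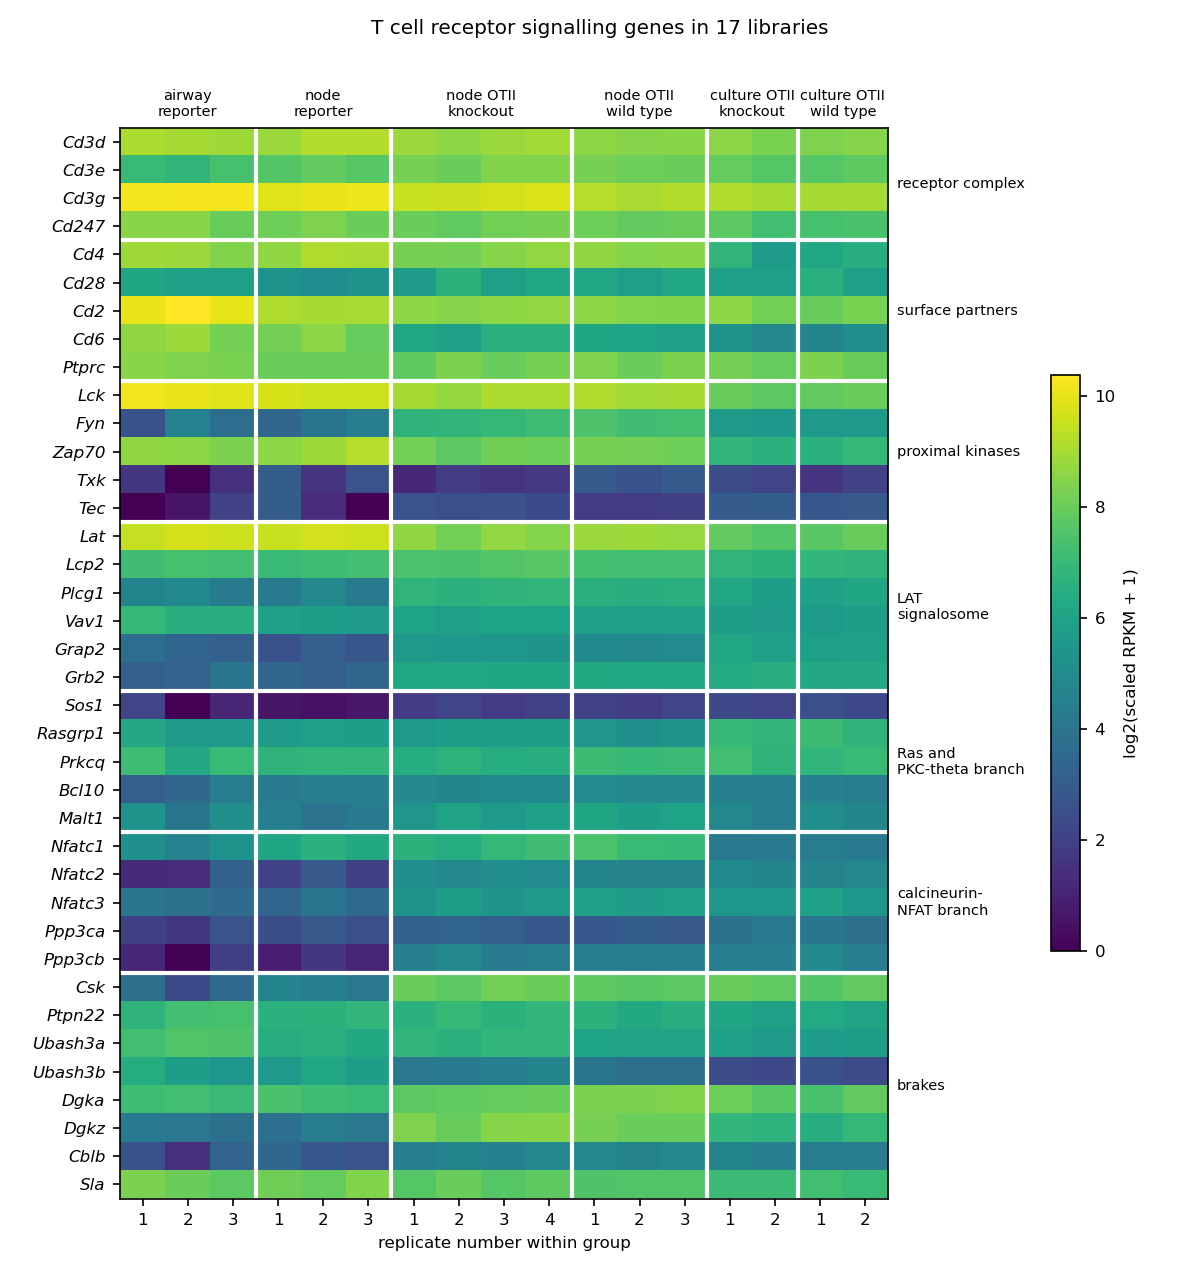
Heat map of the 38 genes (rows, grouped by role) in 17 libraries (columns, grouped as labelled, replicate numbers below), coloured by log2(scaled RPKM + 1). Cd3g, Cd2, Lck and Lat form the brightest rows, the culture columns are darker than the lymph node columns for Cd4, Cd6, Nfatc1 and Ubash3b, and the reporter columns are dark for Fyn, Grb2, Csk and Dgkz.

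The spread over the 6 groups was smallest for Ptprc, which encodes the phosphatase CD45, with a highest group mean 1.3 times the lowest, and for Prkcq at 1.42 times and Cd3d at 1.55 times. It was widest for Csk at 27.6 times, Dgkz at 20.7 times, Ppp3cb at 18.5 times, Ubash3b at 14.3 times and Cd6 at 12.5 times. In each of these 5 the reporter groups lay together at one end. In bulk RNA, fewer cells that express a gene and less RNA per cell cannot be told apart, and this holds for every difference given here.

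The first comparison asked how airway Th2 cells differed from Th2 cells still in the draining node, within reporter mice. Few members passed the test: of 37 tested, 3 rose and 1 fell in the airway, 10.8% of members against 5.27% of all 10111 genes tested with limma at an adjusted p below 0.05 (2.97% higher and 2.30% lower). The 3 were the adhesion and costimulatory receptor Cd2, the guanine nucleotide exchange factor Vav1 and the brake Ubash3a, and the 1 that fell was the transcription factor Nfatc1. Sos1 was too low to be tested. The median log2 fold change was 0.01 over the members and -0.07 over all genes tested.

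Cd2, whose ligand on other cells in the mouse is CD48, had 1090, 1330 and 1010 scaled RPKM in airway libraries, against 559, 502 and 521 in reporter node libraries. The groups were far apart, and the log2 fold change was 1.11 ± 0.13 (SE, adjusted p = 0.00255). Ubash3a, also called STS-2, which dampens receptor signals, had 148, 188 and 177 scaled RPKM in airway libraries, against 86.9, 94.2 and 77.2 in reporter node libraries. Again no airway library overlapped the node, with a log2 fold change of 0.98 ± 0.17 (adjusted p = 0.0124). Vav1, an exchange factor that acts with the LAT complex, had 119, 91.5 and 88.9 scaled RPKM in airway libraries, against 60.6, 55.8 and 51.4 in reporter node libraries, a log2 fold change of 0.81 ± 0.19 (adjusted p = 0.042).

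Nfatc1, an NFAT factor that is itself induced by receptor signals, had 36.3, 23.4 and 39.5 scaled RPKM in airway libraries, against 68.8, 97.6 and 77.7 in reporter node libraries. All airway values were below all node values, and the log2 fold change was -1.29 ± 0.26 (adjusted p = 0.0232). The other 33 members tested did not pass, with log2 fold changes between -1.41 for Txk and 0.76 for the costimulatory receptor Cd28. None of the 4 receptor chains passed. Cd3e had 127, 110 and 164 scaled RPKM in airway libraries, against 195, 238 and 203 in reporter node libraries, a log2 fold change of -0.68 ± 0.18 that missed the threshold (adjusted p = 0.0712). Cd3g had 1180, 1210 and 1200 scaled RPKM in airway libraries, against 927, 1040 and 1110 in reporter node libraries, a log2 fold change of 0.23 ± 0.11 (adjusted p = 0.276). The groups did not overlap for 11 members, 29.7% of those tested, against 26.9% of all genes, a share near the background.

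**Figure D2:**
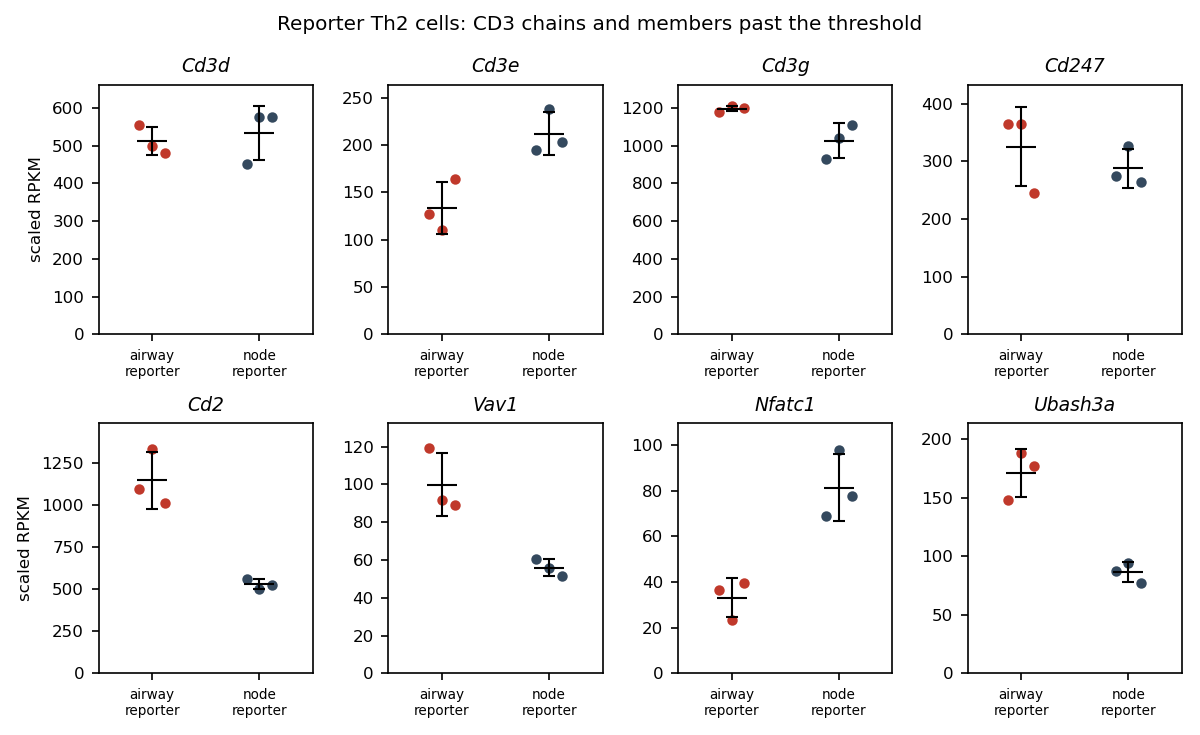
Scaled RPKM (linear axis from 0) of the 4 receptor chains and the 4 members past the threshold in airway (left) and lymph node (right) libraries of reporter mice. Points are libraries, and bars are the mean and SD of 3. Cd2, Vav1 and Ubash3a were higher in all 3 airway libraries than in any node library, and Nfatc1 was lower in all 3.

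Of 81 other pathway genes tested, 3 rose and 2 fell, 6.17% against the 5.27% of all genes, a share near the background. Among those called were the costimulatory receptor Icos (321 scaled RPKM in airway cells and 151 in reporter node cells, log2 fold change 1.09, adjusted p = 0.00426), the NF-kB inhibitor Tnfaip3 (146 and 23.0, 2.56, adjusted p = 0.00505) and the calmodulin gene Calm3 (80.4 and 161, -0.99, adjusted p = 0.00824). Among 13 tested genes that receptor signals are known to induce, Cd69 rose (159 scaled RPKM in airway cells and 72.0 in reporter node cells, adjusted p = 0.0148), while Egr1 (27.7 and 71.4, adjusted p = 0.00945) and Tnfrsf9 (33.0 and 98.4, adjusted p = 0.0313) fell. Of these 6 genes Icos and Tnfaip3 passed whichever library was left out, Calm3, Egr1 and Cd69 were lost without reporter node replicate 2 or 3 (up to 0.0598, 0.0721 and 0.0753), and Tnfrsf9 without any library but airway replicate 1 (up to 0.156). Beside these values stand the macrophage list given above, of which 7 of 10 tested genes rose in the airway and 7 of 14 were at 0 in every reporter node library, and cycling markers, which summed to between 48.3 and 78.9 scaled RPKM in airway libraries and between 313 and 511 in reporter node libraries. Basophil and mast cell markers summed to between 148 and 276 in airway libraries and between 554 and 880 in reporter node libraries. Most of these sums was Hdc (means 182 in airway and 533 in reporter node cells) and Mcpt8 (13.6 and 132). These 2 were the genes of the list that were tested, and both were called lower in the airway. Ms4a2, Fcer1a and Gata2 were at 0 in all 6 libraries. The part of these cells and states in the members' differences was not tested.

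Only Cd2 passed whichever library was left out (highest adjusted p 0.0275); Vav1 was lost without any 1 of the 6 libraries (up to 0.188), and Ubash3a and Nfatc1 without any 1 of the 3 reporter node libraries (up to 0.0774 and 0.126), which leaves 1 of the 4 calls in those fits. On RPKM as deposited the calls split as 2 higher and 2 lower in place of 3 and 1, since Vav1 missed (adjusted p = 0.0713) and Cd3e passed. Without a filter on low values 2 of the 4 passed, Nfatc1 missing with an adjusted p of 0.0662 and Vav1 with 0.0667.

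The second comparison asked what the Notch1/2 knockout label changed in node Th2 cells of OTII mice; the series concerns the role of Notch in letting Th2 cells leave the lymph node. Of the 38 members, 7 rose and 4 fell in knockout-labelled cells, 28.9% of members against 18.1% of all 10869 genes tested (10.4% higher and 7.68% lower). The receptor chain Cd3g, the kinase Tec, the adaptor Grap2, the Ras activator Rasgrp1, the factor Nfatc2 and the brakes Ubash3a and Ubash3b rose. The kinases Txk and Fyn, Prkcq, which encodes protein kinase C-theta, and the diacylglycerol kinase Dgka fell. The median log2 fold change was 0.09 over the members and 0.02 over all genes, and the groups did not overlap for 17 members, 44.7% against 31.2% of all genes.

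In the receptor complex, Cd3g had 736, 743, 840 and 890 scaled RPKM in knockout-labelled node libraries, against 600, 532 and 578 in wild type node libraries. Its log2 fold change was 0.49 ± 0.10 (SE, adjusted p = 0.00913). The other chains did not pass: Cd3d differed by 0.26 (adjusted p = 0.0854), Cd3e by 0.15 (0.356) and Cd247, the zeta chain, by 0.09 (0.611) on the log2 scale. The list of T cell markers, which includes Cd3d, Cd3e and Cd3g, summed to between 2140 and 2560 scaled RPKM in knockout-labelled node libraries and between 1920 and 2060 in wild type node libraries.

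The largest fold change was in a kinase of the Tec family. Txk, a Tec family kinase that lacks the lipid-binding domain of its relatives, had 1.25, 2.48, 1.91 and 2.34 scaled RPKM in knockout-labelled node libraries, against 6.74, 5.19 and 6.72 in wild type node libraries. The reads behind these values were 57, 137, 95 and 96 in knockout-labelled libraries and 269, 242 and 318 in wild type libraries. The log2 fold change was -1.28 ± 0.17 (adjusted p = 0.00122), on a scale with 1 added to each value, which understates changes at such low levels. Tec moved the other way, with 5.55, 4.86, 4.97 and 4.02 scaled RPKM in knockout-labelled node libraries, against 2.59, 2.54 and 2.91 in wild type node libraries (log2 fold change 0.66 ± 0.11, adjusted p = 0.0049). Both genes are transcribed from the same strand of mouse chromosome 5 (mm10), Txk at 72695978 to 72752777 and Tec just upstream of it at 72755718 to 72868448. The ratio of Txk to Tec was accordingly between 0.225 and 0.582 in knockout-labelled node libraries and between 2.04 and 2.61 in wild type node libraries. Fyn, the Src family kinase that works beside Lck, had 106, 110, 120 and 142 scaled RPKM in knockout-labelled node libraries, against 178, 144 and 158 in wild type node libraries (log2 fold change -0.42 ± 0.12, adjusted p = 0.0369). Lck and Zap70 did not pass, with log2 fold changes of -0.05 (adjusted p = 0.795) and -0.16 (0.361).

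Around LAT, Grap2, also called GADS, the adaptor that ties SLP-76 to LAT, had 46.8, 45.3, 42.2 and 40.4 scaled RPKM in knockout-labelled node libraries, against 29.7, 28.6 and 31.2 in wild type node libraries. The groups were well apart, with a log2 fold change of 0.53 ± 0.08 (adjusted p = 0.00248). Lat itself had 403, 284, 409 and 349 scaled RPKM in knockout-labelled node libraries, against 448, 462 and 436 in wild type node libraries; this difference missed the threshold (log2 fold change -0.33 ± 0.13, adjusted p = 0.113). The SLP-76 gene Lcp2 (0.26), Plcg1 (0.20), Vav1 (0.09) and Grb2 (-0.07) did not pass either.

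In the Ras and protein kinase C-theta branch the calls went in opposite directions. Rasgrp1, which loads Ras when diacylglycerol appears, had 47.6, 54.5, 53.7 and 53.4 scaled RPKM in knockout-labelled node libraries, against 41.0, 34.8 and 40.9 in wild type node libraries (log2 fold change 0.42 ± 0.09, adjusted p = 0.0121). Prkcq had 84.1, 103, 85.8 and 93.4 scaled RPKM in knockout-labelled node libraries, against 136, 122 and 132 in wild type node libraries (log2 fold change -0.50 ± 0.09, adjusted p = 0.00633). Both are known to be recruited by the same lipid. In the NFAT branch, Nfatc2 had 32.9, 28.5, 32.9 and 31.3 scaled RPKM in knockout-labelled node libraries, against 25.0, 23.7 and 24.2 in wild type node libraries (log2 fold change 0.35 ± 0.08, adjusted p = 0.0148). Nfatc1 overlapped between the genotypes, with 99.4, 85.8, 118 and 146 scaled RPKM in knockout-labelled node libraries, against 172, 128 and 124 in wild type node libraries (log2 fold change -0.34 ± 0.18, adjusted p = 0.234).

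Among the brakes, Ubash3a gave the smallest p of the set. It had 114, 99.0, 116 and 114 scaled RPKM in knockout-labelled node libraries, against 64.3, 61.3 and 62.3 in wild type node libraries, a log2 fold change of 0.81 ± 0.08 (adjusted p = 0.000281). Its relative Ubash3b, the phosphatase STS-1, had 16.8, 19.1, 20.6 and 24.4 scaled RPKM in knockout-labelled node libraries, against 15.6, 13.3 and 13.3 in wild type node libraries (log2 fold change 0.49 ± 0.13, adjusted p = 0.0274). Dgka, which removes diacylglycerol, had 218, 229, 244 and 249 scaled RPKM in knockout-labelled node libraries, against 321, 319 and 340 in wild type node libraries (log2 fold change -0.47 ± 0.08, adjusted p = 0.00384). The other diacylglycerol kinase of the set, Dgkz, did not pass (0.25 ± 0.14, adjusted p = 0.264), nor did Csk (0.25), Ptpn22 (0.27), Cblb (-0.17) and Sla (0.23). The 27 members that did not pass lay between -0.34 for Nfatc1 and 0.31 for Cd6.

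**Figure D3:**
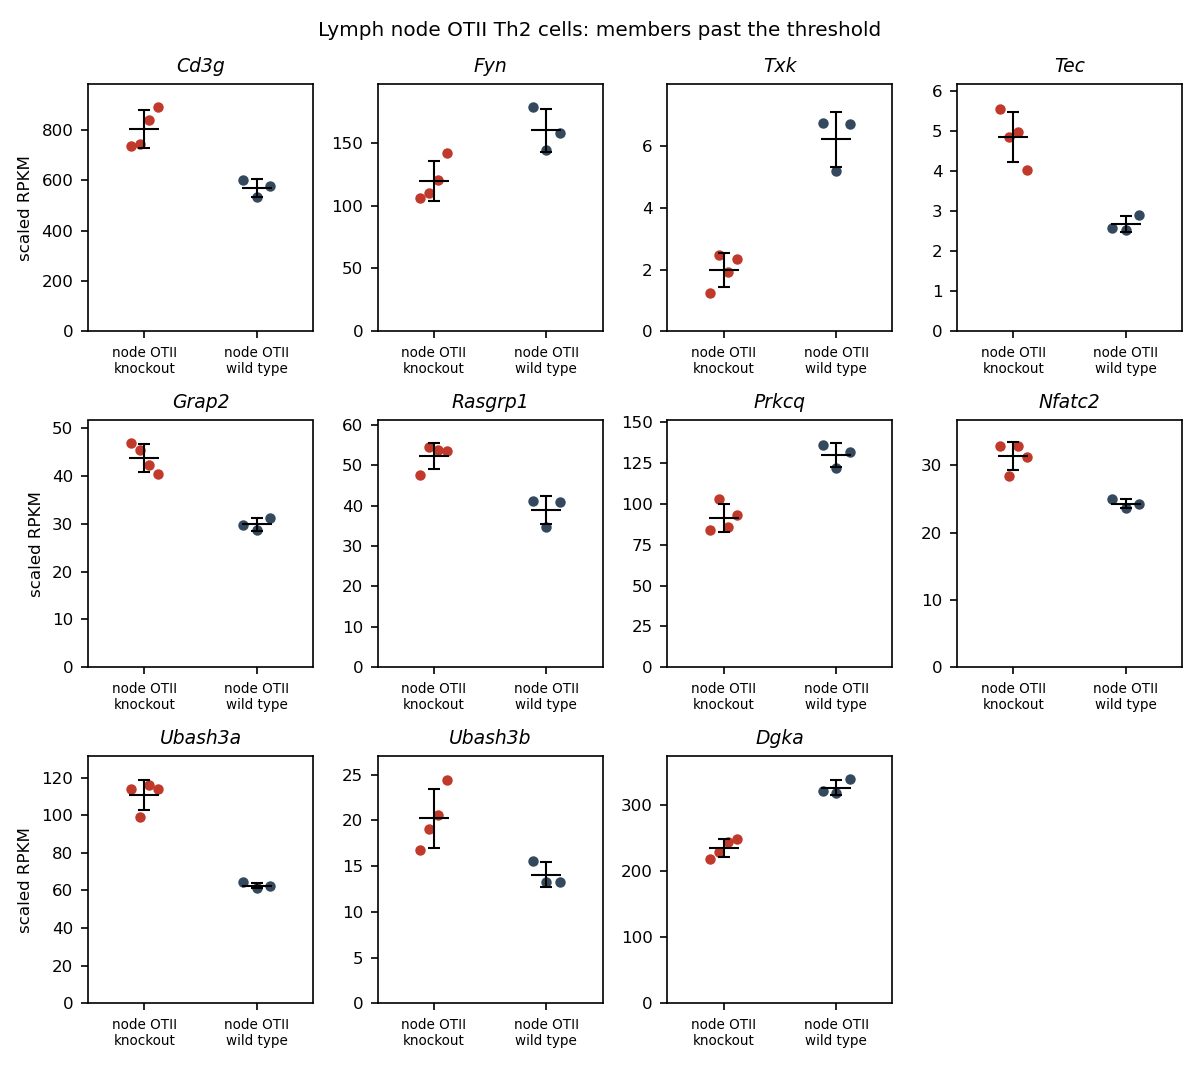
Scaled RPKM (linear axis from 0) of the 11 members past the threshold in lymph node OTII cells, knockout-labelled (left, 4 libraries) and wild type (right, 3 libraries). Points are libraries, and bars are the mean and SD. In all 11 panels every knockout-labelled library lies on the same side of every wild type library, closest in Ubash3b (16.8 against 15.6) and Fyn (142 against 144).

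Promoters are shown for the brakes Ubash3a and Dgka, which changed in opposite directions, for Txk, the member with the largest fall, and for Cd3g, the receptor chain that rose. They are RefSeq sequences of build GRCm38.p6, from 250 bases before to 50 bases after an annotated start, read 5′ to 3′ on the gene's strand. Capitals mark the letters TGGGAA, the core of the site bound by RBPJ, the DNA-binding partner of Notch, or TTCCCA where it lies on the opposite strand.
Ubash3a, chr17:31207816-31208115, plus strand: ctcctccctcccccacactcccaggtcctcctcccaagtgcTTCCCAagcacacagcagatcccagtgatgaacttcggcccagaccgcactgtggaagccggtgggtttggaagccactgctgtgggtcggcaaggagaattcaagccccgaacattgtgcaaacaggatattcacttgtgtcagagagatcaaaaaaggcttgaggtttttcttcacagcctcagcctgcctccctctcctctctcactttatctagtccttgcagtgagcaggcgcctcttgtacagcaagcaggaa
Txk, chr5:72752728-72753027, minus strand: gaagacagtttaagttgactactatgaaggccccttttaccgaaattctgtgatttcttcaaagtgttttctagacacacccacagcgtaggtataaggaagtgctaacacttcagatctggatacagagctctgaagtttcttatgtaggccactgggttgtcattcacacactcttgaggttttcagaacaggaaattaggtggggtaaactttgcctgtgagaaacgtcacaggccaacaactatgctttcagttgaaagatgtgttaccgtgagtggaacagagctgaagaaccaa
Dgka, chr10:128744027-128744326, minus strand: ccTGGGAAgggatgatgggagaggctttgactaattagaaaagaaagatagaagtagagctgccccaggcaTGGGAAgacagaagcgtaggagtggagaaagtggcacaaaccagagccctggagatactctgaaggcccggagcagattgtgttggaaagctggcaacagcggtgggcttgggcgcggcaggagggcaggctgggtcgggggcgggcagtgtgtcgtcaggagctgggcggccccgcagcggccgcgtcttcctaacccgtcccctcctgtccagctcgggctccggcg
Cd3g, chr9:44980382-44980681, minus strand: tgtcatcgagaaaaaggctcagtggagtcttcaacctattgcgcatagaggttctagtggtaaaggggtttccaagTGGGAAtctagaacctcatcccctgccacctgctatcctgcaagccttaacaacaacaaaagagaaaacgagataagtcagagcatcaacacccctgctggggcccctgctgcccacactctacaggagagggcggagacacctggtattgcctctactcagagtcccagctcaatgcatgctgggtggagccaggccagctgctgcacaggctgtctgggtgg
The Ubash3a and Cd3g windows held 1 such match each, the Dgka window, whose start is 20 bases from that of the listed transcript, held 2, and the Txk window held 0. The table has 3 other Dgka windows and 1 other Txk window, from starts farther from that of the listed transcript, and these held 0. Promoters of 30 of the 38 members were in the table, 45 in all, and 12 of the 45 held the core on either strand (26.7%), against 8397 of 32851 promoters in the whole table (25.6%). The share among members was thus near that of all promoters, and a match of 6 letters is a description, not a binding site.

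Of 83 other pathway genes tested in the node, 12 rose and 4 fell in knockout-labelled cells, 19.3% against the 18.1% of all genes, a share near the background. Among those called were Rasa3, which turns Ras off (23.6 scaled RPKM in knockout-labelled node cells and 78.7 in wild type node cells, log2 fold change -1.70, adjusted p = 2.19e-05), the calcium release channel Itpr1 (35.0 and 19.2, 0.83, adjusted p = 0.000239) and the calcium sensor Stim2 (20.4 and 11, 0.84, adjusted p = 0.000286). Of 15 genes induced by receptor signals, 4 rose and 2 fell: Nr4a3, Egr2 and Cd40lg rose with log2 fold changes of 1.01, 0.70 and 0.71 (adjusted p 0.00587, 0.00666 and 0.0154), and Tnfrsf4 fell by 0.64 on the log2 scale (adjusted p = 0.003). Cd40lg was lost without wild type replicate 2 (0.0739). Cycling markers summed to between 419 and 579 scaled RPKM in knockout-labelled node libraries and between 515 and 611 in wild type node libraries, with 2 of 6 called lower. Macrophage markers summed to between 27.9 and 40.7 in knockout-labelled node libraries and between 25.5 and 33.8 in wild type node libraries, where 1 of 5 tested genes, Ly6c2, was higher (23.7 scaled RPKM in knockout-labelled and 6.05 in wild type node cells) and 2 were lower, Cd68 (1.22 and 3.34) and Ccr2 (2.21 and 12.4; lost without wild type replicate 2 or 3, adjusted p up to 0.0552). The natural killer gene Klrb1c (0.268 in knockout-labelled and 4.14 in wild type node cells) and the basophil and mast cell gene Hdc (0.189 and 2.09) were lower too. The part of these cells and of proliferation in the members' differences was not tested.

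Txk, Tec, Grap2, Prkcq, Ubash3a and Dgka passed whichever library was left out; Cd3g and Rasgrp1 were lost without wild type replicate 2 (adjusted p 0.053 and 0.0624), Nfatc2 without wild type replicate 2 or 3 (up to 0.074), Ubash3b without 4 of the 7 (wild type 2 and 3, knockout-labelled 3 and 4; up to 0.112) and Fyn without 5 of the 7 (any wild type, knockout-labelled 1 or 3; up to 0.134), so that 6 members passed without wild type replicate 2 and 18 without knockout-labelled replicate 2. Knockout-labelled node replicates 1 and 2, and 3 and 4, and wild type 2 and 3 share a number in their header, whose meaning is not stated. Leaving out 1 library of such a pair keeps the other in the fit. When these pairs were averaged, Ubash3b was the only 1 of the 11 lost. Scaling each library to its CD3 RNA, the geometric mean of Cd3d, Cd3e and Cd3g, moved the median of all genes to -0.25. It gave 2 members higher and 15 lower, in place of 7 and 4. Cd3d, Cd3e and Cd3g set this factor, so their own changes under it are partly fixed by the scaling and test nothing. Cd3g, Grap2, Rasgrp1, Nfatc2 and Ubash3b then kept a positive log2 fold change (0.06 to 0.24) without passing, Ubash3a (0.51) and Tec (0.43) stayed higher, and Cd3e turned to -0.14. With all 17 libraries in 1 fit, Cd3g and Ubash3a were the 2 of the 11 that passed, and without a filter on low values Fyn (0.0656) and Ubash3b (0.0508) missed.

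In Th2 culture the same genotypes showed no call: 0 of 38 members passed in knockout-labelled against wild type cells with limma, where 0% of all 10968 genes tested were called. No member had an unadjusted p below 0.05, against 256 genes of the whole table, and limma-voom on reads recovered from the tables called 2 genes and no member. The log2 fold changes lay between -0.38 for Cd28 and 0.49 for Txk, and the members' median was 0, as for all genes. With 2 libraries a group, standard errors of 0.15 to 0.32 limit what can be seen. Txk had 4.55 and 3.46 scaled RPKM in knockout-labelled culture, against 2.06 and 3.07 in wild type culture (log2 fold change 0.49 ± 0.22, adjusted p = 1). Ubash3a had 61.0 and 46.2 scaled RPKM in knockout-labelled culture, against 51.1 and 55.7 in wild type culture (-0.01 ± 0.18, adjusted p = 1). Notch1 had 2.64 ± 2.24 scaled RPKM in knockout-labelled culture and 27.9 ± 2.22 in wild type culture (n = 2 each) and did not pass either (limma adjusted p = 0.333), so the absence of calls is no sign that the genotypes are alike. For 6 members the groups did not overlap, 15.8% against 21.2% of all genes.

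The difference between the knockout effects in node and culture was tested in 1 fit over the 11 OTII libraries. It passed for 2 of 38 members, 5.26% against 3.84% of 11508 genes (2.35% higher and 1.49% lower), a share near the background. For Txk the contrast, node minus culture, was -1.78 ± 0.29 on the log2 scale (adjusted p = 0.00648), and this passed without any 1 library (highest adjusted p 0.0397). Its effect was -1.28 in the node and 0.49 in culture. For Ubash3a the contrast was 0.82 ± 0.16 (adjusted p = 0.0196), from an effect of 0.81 in the node and -0.01 in culture. It was lost without wild type node replicate 2 or 3, wild type culture replicate 1 or 2, or knockout-labelled culture replicate 2 (adjusted p up to 0.0741), and with all 17 libraries in 1 fit neither gene passed (Txk 0.543, Ubash3a 0.0929). The nearest of the others was Dgka, with a contrast of -0.72 ± 0.21 (adjusted p = 0.088). Of 84 other pathway genes, 3 were higher and 1 lower by this contrast, 4.76% against the 3.84% of all genes. They include Trat1 (2.28, adjusted p = 0.00365) and Stim2 (0.70, 0.0191), both higher, and Rasa3 (-1.96, 0.000668), which was lower. Stim2 was lost without wild type node replicate 2 or 3, wild type culture replicate 1 or knockout-labelled culture replicate 1 (up to 0.0964).

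**Figure D4:**
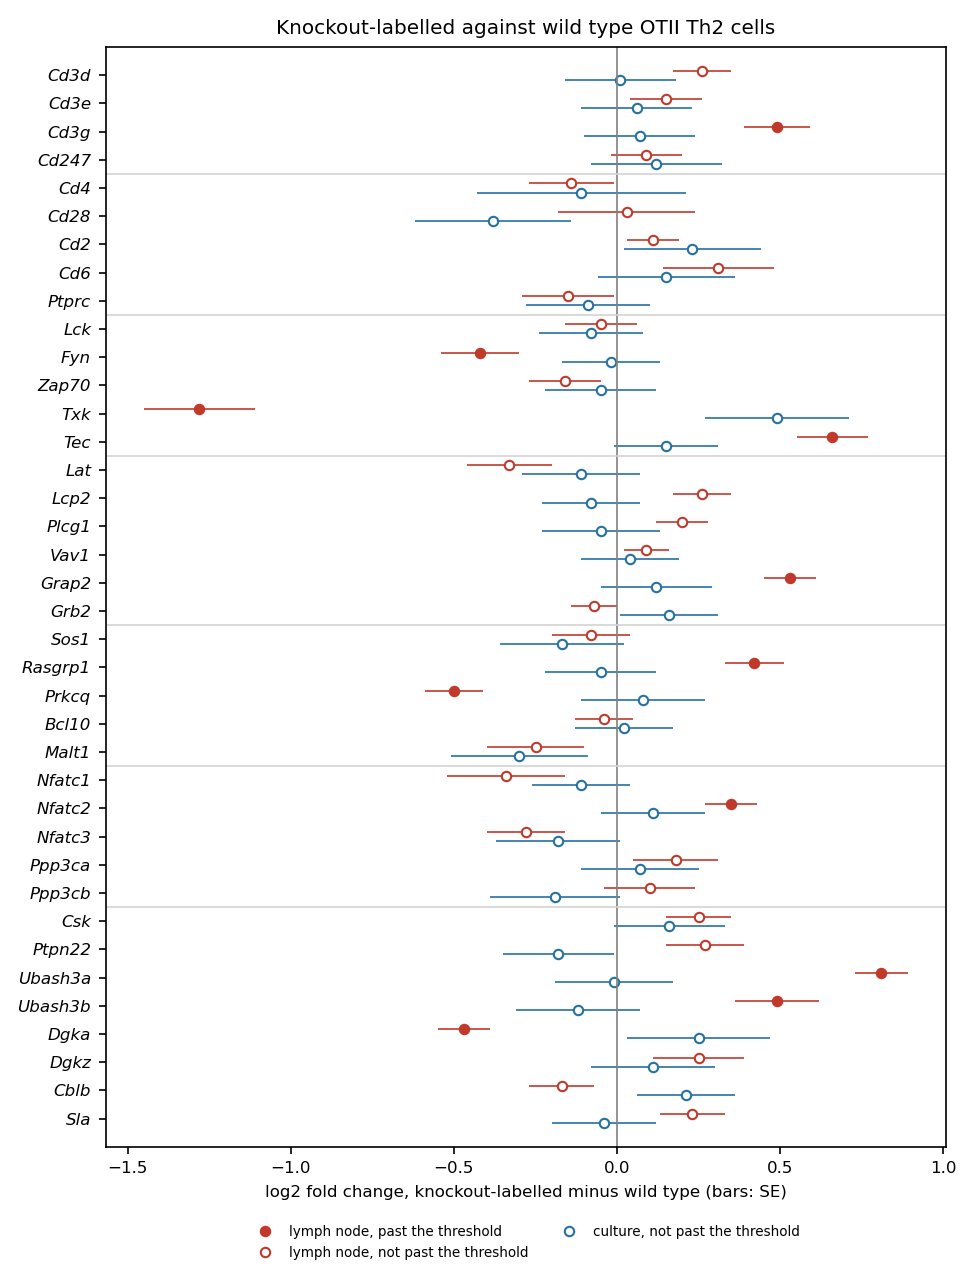
Log2 fold change of knockout-labelled minus wild type OTII cells (horizontal axis, bars are SE) for the 38 genes in lymph node (red) and culture (blue), filled where the adjusted p is below 0.05. The culture values lie between -0.38 and 0.49, with no filled point, and Txk has its node point at -1.28 and its culture point at 0.49.

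The last comparison set node Th2 cells beside cultured Th2 cells of the same genotype. Place, stimulus, cytokines and time differ together, so it describes 2 sources of Th2 cells. Here the most members passed: 19 were higher and 5 lower in knockout-labelled node cells (63.2% of members against 29.0% of 11227 genes), and 19 were higher and 4 lower in wild type node cells (60.5% against 31.0% of 11108 genes). The median log2 fold change was 0.37 over the members in both genotypes, against -0.02 over all genes in knockout-labelled cells and -0.03 in wild type cells. Node and culture libraries did not overlap for 29 members in knockout-labelled cells, 76.3% against 49.7% of all genes, and for 28 in wild type cells, 73.7% against 57.9%. No library is shared between the genotypes' comparisons. Of the 19 and 19 members higher, 16 were higher in both, and of the 5 and 4 lower, 4 were lower in both. The same overlap was not counted over all genes, so it is not read as particular to the members. Higher in both were, among others, the coreceptor Cd4, the kinases Lck, Fyn and Zap70, the scaffold Lat and the brakes Ubash3b, Dgkz and Sla, whereas Tec, Grap2, Rasgrp1 and the calcineurin subunit Ppp3ca were lower in both.

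Nfatc1 showed the largest difference. It had 99.4, 85.8, 118 and 146 scaled RPKM in knockout-labelled node libraries, against 17.3 and 18.6 in knockout-labelled culture (log2 fold change 2.55 ± 0.19, adjusted p = 5.94e-05). Wild type node libraries had 172, 128 and 124 scaled RPKM, against 19.8 and 19.2 in wild type culture (2.78 ± 0.15, adjusted p = 2.97e-05). The other NFAT genes of the set, Nfatc2 and Nfatc3, did not pass in either genotype. Ppp3ca, a catalytic subunit of calcineurin, had 8.33, 9.10, 7.57 and 6.10 scaled RPKM in knockout-labelled node libraries, against 13.5 and 17.3 in knockout-labelled culture (-0.90 ± 0.17, adjusted p = 0.0051). Wild type node libraries had 6.32, 7.28 and 6.55 scaled RPKM of Ppp3ca, against 16 and 13.3 in wild type culture (-1.01 ± 0.13, adjusted p = 0.00118).

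At the surface, Cd4, the coreceptor that brings Lck to the receptor, had 304, 295, 357 and 414 scaled RPKM in knockout-labelled node libraries, against 109 and 50.6 in knockout-labelled culture (log2 fold change 2.18 ± 0.28, adjusted p = 0.000811). Wild type node libraries had 405, 346 and 373 scaled RPKM of Cd4, against 70.7 and 90.9 in wild type culture (2.21 ± 0.14, adjusted p = 4.97e-05). Cd6, a receptor that modulates the response, had 73.4, 58.8, 94.9 and 96.4 scaled RPKM in knockout-labelled node libraries, against 39.3 and 28.9 in knockout-labelled culture, and 70.5, 64.0 and 57.7 in wild type node libraries, against 26.0 and 35.4 in wild type culture. It passed in both (log2 fold changes 1.21 and 1.05). Cd28, Cd2 and Ptprc did not pass in either genotype. Among the receptor chains, Cd3e (0.51 in knockout-labelled and 0.42 in wild type cells) and Cd247 (0.57 and 0.60) rose in both, Cd3g in knockout-labelled cells only by the threshold (0.60, against 0.17 in wild type cells), and Cd3d in neither (0.36 and 0.11). Cd3e had 307, 267, 338 and 344 scaled RPKM in knockout-labelled node libraries, against 240 and 199 in knockout-labelled culture, and 306, 273 and 264 in wild type node libraries, against 198 and 221 in wild type culture. Cd247 had 259, 230, 283 and 302 scaled RPKM in knockout-labelled node libraries, against 216 and 149 in knockout-labelled culture, and 273, 235 and 247 in wild type node libraries, against 161 and 169 in wild type culture. In both genes every node library lay above every culture library of its genotype. Whether the genotypes differ for Cd3g was tested by the contrast of the preceding comparison, where Cd3g did not pass (0.42, adjusted p = 0.171).

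The proximal kinases were the group with the largest median, 1.12 in knockout-labelled and 1.09 in wild type cells. Fyn had 106, 110, 120 and 142 scaled RPKM in knockout-labelled node libraries, against 48.8 and 45.1 in knockout-labelled culture, and 178, 144 and 158 in wild type node libraries, against 47.7 and 47.2 in wild type culture. Its log2 fold changes were 1.32 ± 0.13 (adjusted p = 0.000236) and 1.73 ± 0.11 (adjusted p = 6.59e-05). Zap70, whose listed transcript is a short one of 1335 bases, had 289, 215, 275 and 273 scaled RPKM in knockout-labelled node libraries, against 111 and 98.0 in knockout-labelled culture, and 304, 297 and 274 in wild type node libraries, against 97.4 and 120 in wild type culture. Lck had 503, 427, 552 and 549 scaled RPKM in knockout-labelled node libraries, against 249 and 215 in knockout-labelled culture, and 571, 495 and 505 in wild type node libraries, against 236 and 254 in wild type culture. Both rose in both genotypes, Zap70 by 1.32 and 1.42 and Lck by 1.12 and 1.09 in knockout-labelled and wild type cells on the log2 scale. The Tec family kinases behaved otherwise. Tec fell in both, with 5.55, 4.86, 4.97 and 4.02 scaled RPKM in knockout-labelled node libraries, against 7.06 and 7.32 in knockout-labelled culture (-0.49), and 2.59, 2.54 and 2.91 in wild type node libraries, against 6.31 and 6.45 in wild type culture (-1.01). Txk fell in knockout-labelled cells, with 1.25 to 2.48 scaled RPKM in the node against 4.55 and 3.46 in culture (-0.75 ± 0.20, adjusted p = 0.0249), and rose in wild type cells, with 5.19 to 6.74 in the node against 2.06 and 3.07 in culture (1.02 ± 0.18, adjusted p = 0.00464).

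In the LAT complex, Lat (log2 fold changes 0.76 in knockout-labelled and 0.97 in wild type cells), Lcp2 (0.80 and 0.47) and Plcg1 (0.76 and 0.51) rose in both genotypes. Lat had 403, 284, 409 and 349 scaled RPKM in knockout-labelled node libraries, against 235 and 191 in knockout-labelled culture, and 448, 462 and 436 in wild type node libraries, against 209 and 249 in wild type culture. Lcp2 had 173, 170, 194 and 210 scaled RPKM in knockout-labelled node libraries, against 110 and 102 in knockout-labelled culture, and 159, 151 and 156 in wild type node libraries, against 116 and 108 in wild type culture. Plcg1 had 111, 98.2, 107 and 111 scaled RPKM in knockout-labelled node libraries, against 71.4 and 54.9 in knockout-labelled culture, and 95.4, 87.6 and 96.2 in wild type node libraries, against 60.5 and 69.7 in wild type culture. For Lat, Lcp2 and Plcg1 each node library exceeded each culture library of its genotype. Grap2 fell in both, with 46.8, 45.3, 42.2 and 40.4 scaled RPKM in knockout-labelled node libraries, against 71.0 and 56.2 in knockout-labelled culture (-0.52), and 29.7, 28.6 and 31.2 in wild type node libraries, against 56.7 and 59.6 in wild type culture (-0.94). Rasgrp1 fell most, with 47.6, 54.5, 53.7 and 53.4 scaled RPKM in knockout-labelled node libraries, against 124 and 112 in knockout-labelled culture (-1.16 ± 0.10, adjusted p = 0.000129), and 41.0, 34.8 and 40.9 in wild type node libraries, against 137 and 108 in wild type culture (-1.63 ± 0.14, adjusted p = 0.000178). Malt1, the protease of the NF-kB branch, rose (1.09 and 1.04), as did its partner Bcl10 (0.39 and 0.45). Malt1 had 41.8, 62.6, 46.9 and 59.8 scaled RPKM in knockout-labelled node libraries, against 28.1 and 20.5 in knockout-labelled culture, and 68.2, 55.0 and 63.8 in wild type node libraries, against 34.1 and 25.9 in wild type culture. Bcl10 had 28.8, 25.3, 29.1 and 30.7 scaled RPKM in knockout-labelled node libraries, against 21.7 and 21.1 in knockout-labelled culture, and 31.0, 28.4 and 28.2 in wild type node libraries, against 21.8 and 20.3 in wild type culture. Again node and culture did not overlap in either genotype.

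Of the 8 brakes, 5 were higher and none lower in each genotype, 62.5% called, close to the 63.2% and 60.5% of all members in knockout-labelled and wild type cells. Ubash3b had 16.8, 19.1, 20.6 and 24.4 scaled RPKM in knockout-labelled node libraries, against 4.55 and 3.86 in knockout-labelled culture (log2 fold change 2.02 ± 0.15, adjusted p = 6.08e-05), and 15.6, 13.3 and 13.3 in wild type node libraries, against 5.16 and 4.16 in wild type culture (1.41 ± 0.14, adjusted p = 0.000323). Dgkz had 328, 246, 364 and 368 scaled RPKM in knockout-labelled node libraries, against 117 and 104 in knockout-labelled culture, and 300, 254 and 260 in wild type node libraries, against 87.2 and 120 in wild type culture (1.54 and 1.40). Sla, an adaptor that promotes receptor degradation, rose in both (0.70 and 0.43). Sla had 201, 257, 201 and 225 scaled RPKM in knockout-labelled node libraries, against 135 and 134 in knockout-labelled culture, and 185, 186 and 190 in wild type node libraries, against 149 and 128 in wild type culture. Ubash3a (1.04, against 0.23 in wild type cells) and Ptpn22 (0.76, against 0.31 in wild type cells) passed in knockout-labelled cells, and Dgka (0.71, against -0.01 in knockout-labelled cells) and Cblb (0.40, against 0.03 in knockout-labelled cells) in wild type cells. Ptpn22 had 96.6, 123, 101 and 117 scaled RPKM in knockout-labelled node libraries, against 69.0 and 59.3 in knockout-labelled culture, and 102, 78.0 and 92.2 in wild type node libraries, against 79.4 and 66.1 in wild type culture. Cblb had 21.2, 24.7, 22.5 and 26.6 scaled RPKM in knockout-labelled node libraries, against 24.8 and 21.8 in knockout-labelled culture, and 28.1, 23.8 and 28.8 in wild type node libraries, against 20.1 and 19.9 in wild type culture. Dgka had 218, 229, 244 and 249 scaled RPKM in knockout-labelled node libraries, against 274 and 205 in knockout-labelled culture, and 321, 319 and 340 in wild type node libraries, against 169 and 235 in wild type culture. By the contrast between node and culture, Ubash3a was the 1 of these 4 whose genotypes differed past the threshold; Ptpn22 (0.45, adjusted p = 0.267), Dgka (-0.72, 0.088) and Cblb (-0.38, 0.249) did not pass. Csk, the kinase that switches Lck off, averaged between 213 and 257 scaled RPKM in the 4 OTII groups and did not pass. Members that passed in neither genotype numbered 12, and 8 of the 38 passed in none of the 6 contrasts: Cd28, Cd3d, Csk, Grb2, Nfatc3, Ppp3cb, Ptprc and Sos1.

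**Figure D5:**
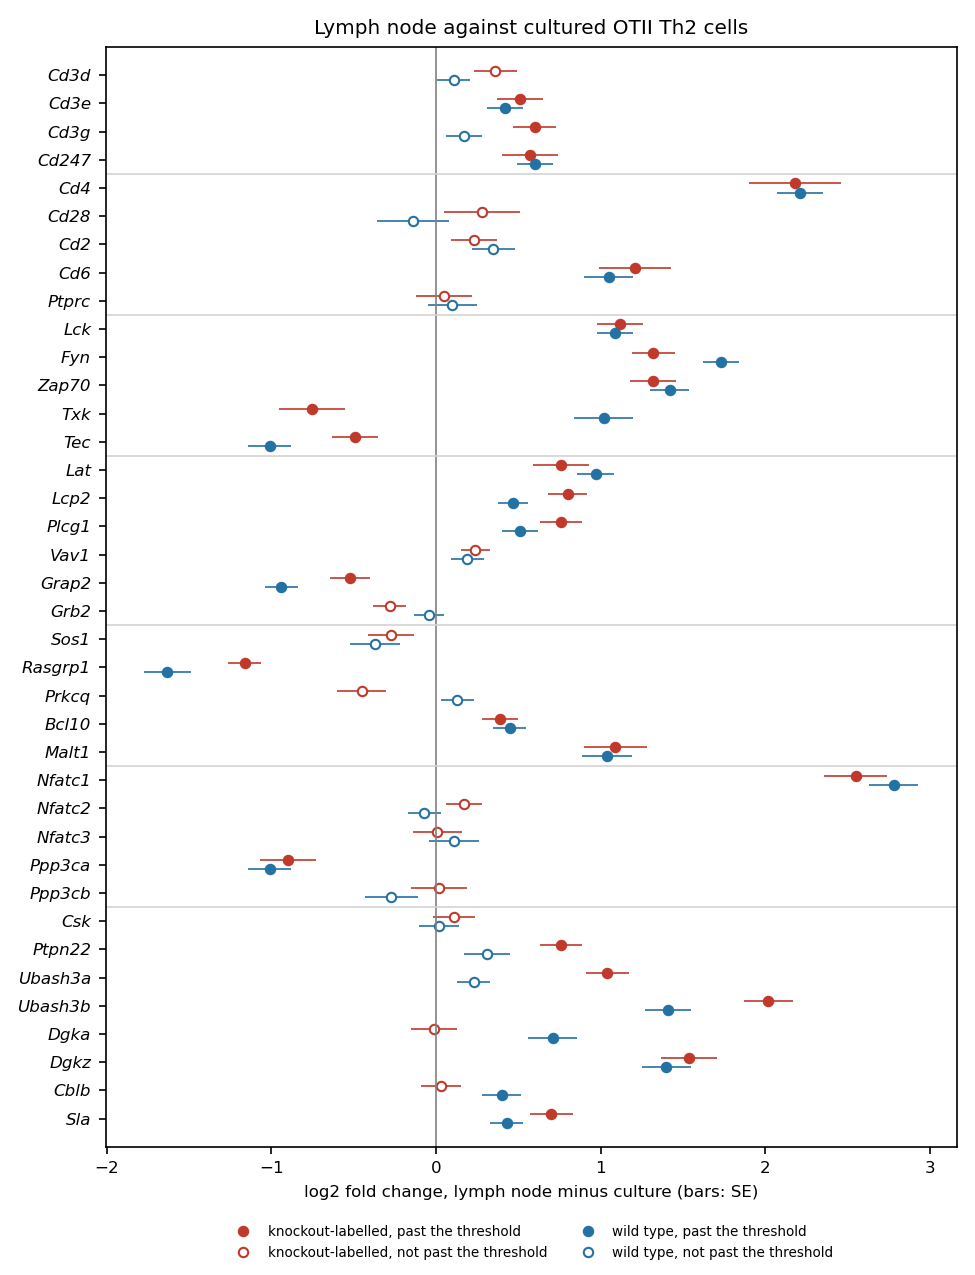
Log2 fold change of lymph node minus cultured OTII cells (horizontal axis, bars are SE) for the 38 genes in knockout-labelled (red) and wild type (blue) cells, filled where the adjusted p is below 0.05. Nfatc1 and Cd4 lie beyond 2 in both genotypes, Rasgrp1 lies at -1.16 and -1.63, and Txk lies at -0.75 in knockout-labelled and 1.02 in wild type cells.

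Of 84 other pathway genes 23 were higher and 9 lower in knockout-labelled node cells, and 19 higher and 13 lower in wild type node cells (38.1% called in each, against 29.0% and 31.0% of all genes), with medians of 0.11 and 0.04 on the log2 scale. Lax1, an inhibitory adaptor, had 53.2 scaled RPKM in knockout-labelled node cells and 9.27 in knockout-labelled culture (2.38, adjusted p = 3.27e-05), and 104 in wild type node cells and 13.6 in wild type culture (2.85, adjusted p = 1.36e-05). Of 15 genes induced by receptor signals, 11 were higher and 2 lower in the node in each genotype. Egr2, for one, had 29.2 scaled RPKM in knockout-labelled node cells and 0.445 in knockout-labelled culture, and 17.6 in wild type node cells and 0.75 in wild type culture. Cycling markers summed to between 419 and 579 scaled RPKM in knockout-labelled node libraries, against 756 and 895 in knockout-labelled culture, and between 515 and 611 in wild type node libraries, against 801 to 903 in wild type culture, and 5 of 6 were lower in the node in each genotype. B cell markers were higher in the node for 3 of 4 tested in knockout-labelled and 2 of 3 in wild type cells. Of macrophage markers, 3 of 5 were higher and 2 lower in knockout-labelled cells, and 2 of 5 higher and 1 lower in wild type cells. Of CD8 and natural killer markers, 2 of 4 were lower in knockout-labelled cells, and 3 of 5 were lower and 1 higher in wild type cells. Cpa3 of mast cells and Sox13 of gamma-delta T cells were lower in both, and Hdc was higher in wild type cells. Their part in the members' differences was not tested.

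Without knockout-labelled culture replicate 2, 14 members passed in knockout-labelled cells: Cd3g, Cd6, Lat, Malt1, Ptpn22, Cd247, Cd3e, Bcl10, Ppp3ca, Tec and Txk were lost (adjusted p up to 0.318), and Prkcq was gained. Of these, Cd3e, Cd247, Bcl10, Tec and Txk were also lost without node replicate 3, Cd3e, Cd247, Bcl10 and Tec without node replicate 4, Cd247 and Bcl10 without node replicate 1, and Cd3e, Bcl10, Tec and Txk without culture replicate 1. Other calls lost when 1 library was left out were Grap2 in knockout-labelled cells (without culture replicate 1, 0.128) and, in wild type cells, Bcl10 and Sla without any 1 node library (up to 0.066 and 0.0741), Cd3e without any 1 node library or culture replicate 1 (up to 0.0958) and Cblb without node replicate 1 or 3 or either culture library (up to 0.14). With all 17 libraries in 1 fit, 14 of the 23 passed in wild type cells and 18 of the 24 in knockout-labelled cells, and Txk passed in neither (0.413 in knockout-labelled and 0.257 in wild type cells).

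Reporter and wild type OTII node cells were not tested against each other, because mice, sorting and, for Lck and Ppp3cb, the listed transcript differ together and cannot be told apart. Their levels stood far apart for part of the set. Dgkz averaged 16.3 scaled RPKM in reporter node cells and 271 in wild type OTII node cells, Ppp3cb 1.35 and 20.3, Fyn 15.0 and 160, Csk 20.7 and 215, and Grb2 9.06 and 74.2. Cd6, in contrast, averaged 306 scaled RPKM in reporter node cells and 64.1 in wild type OTII node cells, and Ubash3b 58.4 and 14. Lck and Fyn thus stood in a ratio of 39.2 to 87.8 in reporter node libraries and of 3.20 to 3.44 in wild type OTII node libraries. Gata3, the gene the reporter follows, averaged 404 scaled RPKM in reporter node cells and 56.0 in wild type OTII node cells. The libraries differed as well: 12177 to 12982 genes were at 0 in reporter node libraries and 9643 to 10128 in wild type OTII node libraries. Among T cell markers outside the set, Thy1 averaged 76.3 and 573 in these groups, and Cd5 262 and 133. The part of the libraries in the members' levels was not tested.

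The spans of some members, introns included, overlap those of neighbours, and the sources used here do not say that reads were counted by strand. Plcg1, Malt1, Ppp3cb, Dgka and Sla overlap a gene on the opposite strand. Of these neighbours Pmel, beside Dgka, was the most abundant at 11.7 scaled RPKM on average. Lck, Lat, Grap2 and Dgkz overlap a microRNA gene on the same strand, which strand could not separate. Mir8119 at Lck averaged 73.7 scaled RPKM and Mir7058 at Lat 63.8. Whether the pairs share exon sequence was not tested. Where an opposite-strand pair does, its reads cannot be told apart without strand.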

How the data were processed

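RNA of 17 mouse Th2 libraries was quantified by the authors as RPKM per gene, 1 deposited table per library. The submitters' processing notes name HISAT2 2.0.4, HOMER, DESeq2 and mm10, with no parameters or strand setting. Each table holds 24537 genes. Reads recovered from the RPKM steps came out whole within 0.1 below 100 reads. They give 16.3 to 27.5 M reads per library.

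RPKM were scaled by a median of ratios over 6796 genes with at least 1 RPKM in all libraries. log2(scaled RPKM + 1) was tested with limma 3.58.1 in R 4.3.3 (two-sided, trended variance, Benjamini-Hochberg over all genes tested, threshold 0.05). A gene was tested when it reached 1 scaled RPKM in a number of libraries equal to the smaller group. Differences are log2 fold changes on this scale, ± SE. The procedure was tested on simulated data. Separate animals are not stated, so p-values measure the spread between these libraries, which may be technical.

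Reporter and OTII tables list another transcript for 1644 genes, 2 of them members, Lck and Ppp3cb. The members, lists and tests were chosen with earlier results of these data known. Values in every library were given for members past the threshold in at least 1 comparison, and at most the 4 genes with the smallest p were named from other lists; 1 gene so chosen is not reported here. Alternatives were other scalings, pseudocounts, filters and models, blocks and leaving out each library. Promoters came from RefSeq (GRCm38.p6).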

Additional observations from a re-analysis of the deposited data

Results flagged for a closer look

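In knockout-labelled node cells, 3 of 38 members had 1 library apart from the other 3 by Dixon's 95% criterion. For independent, normally distributed values chance meets it in about 1 in 20 groups. The criterion was applied to the members in these cells only, so the share over all genes is not known. Ubash3a had 99.0 scaled RPKM in replicate 2, against 114 to 116 in the other replicates. Vav1 had 58.6 in replicate 2, against 63.0 to 63.8 in the others. Rasgrp1 had 47.6 in replicate 1, against 53.4 to 54.5 in the others. The low Ubash3a and Rasgrp1 values still lay above every wild type node library.

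The knockout effect differed between node and culture for Txk, by -1.78 on the log2 scale, and for Ubash3a, by 0.82 (limma adjusted p 0.00648 and 0.0196). These calls are 5.26% of members, near the 3.84% of all genes. With all 17 libraries in 1 fit neither gene passed, and Ubash3a was also lost in several fits without 1 library.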

How the results depend on the processing

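The numbers of members past the threshold moved with the model, the scaling and single libraries. No member past the threshold changed sign under any setting run, whereas members that had not passed did so in every comparison. Cd3e in the node genotype comparison, for one, was at 0.15, and at -0.14 with CD3 scaling, a factor that Cd3e itself helps to set. In the airway comparison (4 members), no filter gave 2, all 17 libraries in 1 fit 11, and leaving out 1 library between 1 and 4. In the node genotype comparison (11), 1 fit gave 2, scaling to CD3 mRNA 17, and leaving out 1 library between 6 and 18. In node against culture, knockout-labelled cells (24) gave 14 to 28 without 1 library, and wild type cells (23) gave 14 in 1 fit and 19 to 24 without 1 library. The difference of knockout effects (2) gave 0 in 1 fit and 1 to 2 without 1 library. The culture genotype comparison gave 0 under every setting run. Where a setting changed calls, the cause was not tested.

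Over all genes, calls went from 533 in the airway comparison to 224 with no filter, 244 with limma-voom on recovered reads and 2705 in 1 fit. For node genotype, 1965 calls became 353 in 1 fit and 3736 with CD3 scaling. In culture, 0 calls became 52 with CD3 scaling and 2 with limma-voom. For node against culture, 3251 calls in knockout-labelled cells became 1232 and 3448 in wild type cells became 939 in 1 fit, and the 442 of the difference became 79.

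With the replicate number as a block, the members called were 3 in the airway comparison, 4 in the node genotype comparison (3 higher, 1 lower), 0 in culture, 18 and 22 in knockout-labelled and wild type node against culture, and 1 in the difference, where Ubash3a missed (adjusted p = 0.115). Over all genes the block gave 636 calls for node genotype, 65 in culture, 1932 in knockout-labelled node against culture and 166 in the difference. Samples of the same number did not deviate together in the airway comparison (correlations 0.01 to 0.03) or in the node (-0.07 to -0.31). In the node, the highest correlation with a wild type library of another number was 0.41, 0.47 and 0.2 for knockout-labelled replicates 1, 2 and 3. Deviations from a mean of 2 libraries mirror each other, so the -0.19 in culture cannot decide. The replicate numbers are not taken as pairs. limma-voom, the averaging of libraries that share a number in their table header and a block on that number were chosen after seeing the data; the last gave 10 members for node genotype. Averaging (knockout-labelled node replicates 1 and 2, and 3 and 4, and wild type 2 and 3) gave 12, 6 higher and 6 lower, losing Ubash3b and gaining Lat and Nfatc3; in node against culture it lost Cd247 in knockout-labelled and Cblb, Cd3e and Sla in wild type cells. An edgeR test was not run, because the deposited unit is RPKM. Txk rests on as few as 57 reads in 1 node library, and standard errors cover the spread of these libraries only.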

Other observations

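Ratios of related members are given here as values, with no test. The ratio of Dgka to Dgkz, which remove the same lipid, was 8.03 to 10 in airway libraries, 7.20 to 13.1 in reporter node libraries, 0.664 to 0.931 in knockout-labelled node libraries, 1.07 to 1.31 in wild type node libraries, 1.98 to 2.34 in knockout-labelled culture and 1.94 to 1.96 in wild type culture. Nfatc1 over Nfatc2 was 4.78 to 26.9 in airway libraries and 15 to 26.5 in reporter node libraries. It was 3.01 to 4.67 in knockout-labelled node libraries and 5.13 to 6.87 in wild type node libraries, against 0.582 to 0.723 in knockout-labelled culture and 0.704 to 0.822 in wild type culture. Cd3g over Cd3e, chains of 1 receptor complex, was 7.34 to 11 in airway libraries and 4.39 to 5.45 in reporter node libraries, and 2.40 to 2.78 in knockout-labelled node libraries and 1.95 to 2.19 in wild type node libraries. In knockout-labelled culture it was 2.33 to 2.51, and in wild type culture 2.28 to 2.55, ranges that overlap each other and that of knockout-labelled node libraries.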
